A study of Homo sapiens with 30 samples.

Results

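Androgen receptor coregulators are proteins that the hormone-bound receptor recruits to DNA, where they modify histones and the receptor itself, move nucleosomes, or contact the transcription machinery. A list of 40 such genes was followed across R1881 doses in LNCaP cells: 7 nuclear receptor coactivators (NCOA1, NCOA2, NCOA3, NCOA4, NCOA6, NCOA7 and TRIM24), 2 Mediator subunits, 5 acetyltransferases, 5 methyltransferases, 5 lysine demethylases, 4 chromatin remodellers, 4 corepressors, 4 deacetylases, and 4 SUMO or ubiquitin ligase components. They were chosen by symbol, through the Ensembl identifiers of the count table, and all 40 were found among its 37843 rows. LNCaP is an established, androgen-responsive line from a lymph node metastasis of human prostate cancer. R1881 (methyltrienolone) is a synthetic androgen that cells metabolise slowly. All groups, the controls included, were grown in medium with charcoal-stripped serum, which is low in steroids, and then received vehicle, 0.03 nM, 0.06 nM, 0.1 nM or 10 nM R1881 for 24 hours. Each of the 5 groups held 3 RNA-seq libraries, numbered 2 to 4 in the labels. The series' design text calls the lower doses low and 10 nM high. The labels do not say whether the libraries came from separate cultures, so p-values measure only the spread between these libraries, which may be technical. It is 1 cell line, and the 4 dose comparisons share the same 3 vehicle libraries.

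The libraries held between 30666460 and 61199483 counts, and each member between 661 and 18983 counts in every library. The androgen response followed the labels: KLK3, which encodes prostate-specific antigen, rose from 102 ± 7.64 CPM (the count scaled to a common library size; SD, n = 3) in vehicle to 3850 ± 79.6 CPM at 10 nM. All 10 luminal prostate markers listed were in the table, and at 10 nM 5 of them were called higher and 4 lower. Their summed level went from 5140 to 5310 CPM in vehicle to 13700 to 14000 CPM at 10 nM. Basal markers (3 of 5 in the table) were near 0, with summed levels of 0.0231 to 0.0444 CPM in vehicle and at most 0.914 CPM, at 0.1 nM. The 1 basal marker tested was called higher at every dose against vehicle. Summed fibroblast markers (5 of 6 in the table) went from 28.3 to 39.7 CPM in vehicle to 16.4 to 20 CPM at 10 nM, and leukocyte and endothelial markers (7 of 7) from 16.7 to 20.2 CPM to 5.24 to 8.04 CPM. Nearly all of these sums came from COL1A1 and VWF; DCN and PDGFRA of fibroblasts, PTPRC and CD3E of leukocytes and PECAM1 and CDH5 of endothelium were at or near 0. The 3 fibroblast markers and the 1 leukocyte or endothelial marker tested were called lower at 10 nM against vehicle. In bulk RNA fewer cells of a kind and less RNA per cell cannot be told apart, and the part of these markers in the results was not tested. The 5 libraries numbered 3 had 9.31% to 10.7% mitochondrial counts, against 6.14% to 7.69% in the others. CPM uses library totals scaled by edgeR's TMM factors, and a gene is called at a Benjamini-Hochberg adjusted p under 0.05 over the 18403 genes tested with edgeR's quasi-likelihood test.

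The coregulators fall into families with opposed tasks. The p160 coactivators NCOA1, NCOA2 and NCOA3 bind the liganded receptor and bring in acetyltransferases such as EP300 and CREBBP, while Mediator links the complex to RNA polymerase II. Corepressors such as NCOR1 and the CTBP proteins recruit deacetylases and other repressive enzymes, and SUMO and ubiquitin ligases such as PIAS1, STUB1 and SPOP modify or degrade the receptor and its partners. In prostate cancer cells several of these proteins change in amount or are mutated.

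Most coregulators moved little, and they moved in both directions. At 10 nM R1881, 29 of 40 members were called, 16 higher and 13 lower, where 57.6% of all genes tested were called (29.3% higher and 28.3% lower). The median size of change was 0.29 log2 units over the members and 0.359 over all genes, and 3 members passed a 2-fold change: NCOA7 and CTBP1 downward and PIAS1 upward. At 0.03 nM, 4 members were called, all lower, against 8.63% of all genes in either direction (5.47% higher and 3.16% lower). At 0.06 nM, 17 members were called (8 higher, 9 lower) against 31.2% of all genes (16.9% higher, 14.3% lower). At 0.1 nM 21 members were called (10 higher, 11 lower) against 42.1% (21.5% higher, 20.6% lower). Between 10 nM and 0.06 nM, 19 members were called (12 higher, 7 lower) against 45.3% (22.7% higher, 22.6% lower). Members' libraries did not overlap between the 2 groups compared for 10, 21, 23, 27 and 24 of the 40 in these comparisons, taken in the order 0.03, 0.06, 0.1 and 10 nM against vehicle and 10 against 0.06 nM, while the shares of all genes were 24.2%, 43.0%, 50.5%, 62.6% and 54.1%. The members' shares in either direction (10%, 42.5%, 52.5%, 72.5% and 47.5%) are thus of the same order as those of all genes, and no test of that difference was made.

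**Figure D1:**
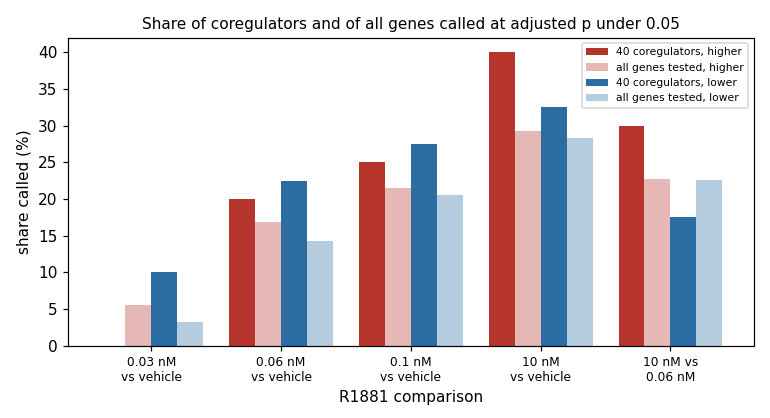
Share of genes called in 5 comparisons of R1881 doses, in percent: dark bars are the 40 coregulators and pale bars all 18403 genes tested, red for higher and blue for lower. At 10 nM against vehicle 40% of the coregulators were higher and 32.5% lower, beside 29.3% and 28.3% of all genes.

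These directions are relative to the typical gene, because TMM scaling sets the bulk of genes near 0. TMM factors ran from 1.03 to 1.06 in vehicle and from 0.883 to 0.912 at 10 nM. With plain library totals the median of all genes shifted by −0.21 log2 units at 10 nM against vehicle and by −0.18 at 10 nM against 0.06 nM. On those totals the members' split at 10 nM became 8 higher and 22 lower, and that of all genes 3069 higher and 7987 lower in place of 5399 and 5209. For 10 nM against 0.06 nM it became 9 higher and 21 lower among members, and 2333 higher and 7043 lower among all genes in place of 4182 and 4159. At 0.1 nM plain totals gave 5 members higher and 12 lower. The 19 calls at 10 nM that held in every alternative run include NCOA7, CTBP1, PIAS1, KAT2B, KDM4B, TRIM24, NCOR1, NCOA2 and NCOA3, the 9 members whose called change reached 0.5 log2 units in some comparison.

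The dose at which a member was first called differed within families. Calls began at 0.03 nM for NCOA3, NCOA7, MED12 and KDM4A, at 0.06 nM for 13 members, at 0.1 nM for 5 and at 10 nM for 10. The last group included PIAS1, CTBP2, NCOA4, SIRT1 and SPOP. The 8 members called at no dose against vehicle were NCOA6, MED1, KAT5, KMT2D, CARM1, SMARCA2, SMARCA4 and ARID1A. Of all genes tested, 8.63%, 31.2%, 42.1% and 57.6% were called at 0.03, 0.06, 0.1 and 10 nM, whether for the first time or not. These starting doses are those of the main test, and in some alternative runs members were called from a lower dose. Only NCOA3 and NCOA7 of the 4 calls at 0.03 nM held in every alternative. At 0.06, 0.1 and 10 nM, 10 of 17, 13 of 21 and 19 of 29 calls held in every alternative. The 13 at 0.1 nM include none of the 5 members first called there, TRIM24, KAT2B, KDM1A, KDM4C and PIAS2. The MED12 call at 0.03 nM was lost (adjusted p 0.0505 to 0.185) without any of 8 libraries, namely vehicle 2 or 4, 0.03 nM 3 or 4, 0.06 nM 4, 0.1 nM 2 or 4, or 10 nM 4. The KDM4A call was lost (0.0535 to 0.178) without vehicle 2 or 4, 0.03 nM 3 or 4, or any library at 0.06 or 0.1 nM.

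**Figure D2:**
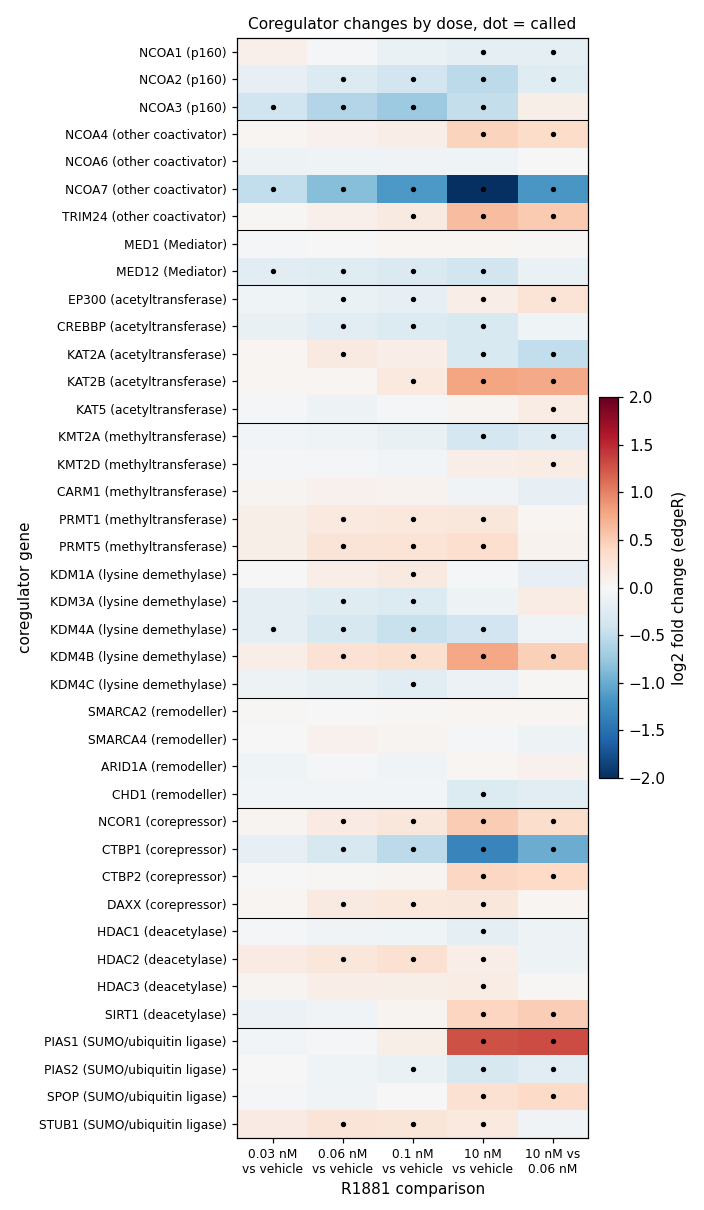
Log2 fold change (edgeR) of each of the 40 coregulators (rows, grouped by role) in 5 comparisons of R1881 doses (columns), red for higher, blue for lower, with a dot where the adjusted p was under 0.05. NCOA7 reached −2.01 and CTBP1 −1.32 at 10 nM against vehicle, and PIAS1 reached 1.27.

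Promoter sequence is shown for NCOA7, the member with the largest fall, and for KDM4B, a member that rose, so that their composition can be compared. The rising genes PIAS1 and KAT2B changed more than KDM4B but are not shown, since their windows lie partly or wholly inside the gene as GENCODE release 29 annotates it. Each line gives the 250 bases before the RefSeq start on the plus strand of GRCh38.p14, at chr6:125780865-125781114 and chr19:4968863-4969112, with CG dinucleotides in capitals.
NCOA7: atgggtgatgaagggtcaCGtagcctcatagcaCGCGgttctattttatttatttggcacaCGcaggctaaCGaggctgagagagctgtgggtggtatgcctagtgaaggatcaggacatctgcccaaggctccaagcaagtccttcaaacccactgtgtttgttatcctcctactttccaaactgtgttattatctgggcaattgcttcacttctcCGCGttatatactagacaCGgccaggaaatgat
KDM4B: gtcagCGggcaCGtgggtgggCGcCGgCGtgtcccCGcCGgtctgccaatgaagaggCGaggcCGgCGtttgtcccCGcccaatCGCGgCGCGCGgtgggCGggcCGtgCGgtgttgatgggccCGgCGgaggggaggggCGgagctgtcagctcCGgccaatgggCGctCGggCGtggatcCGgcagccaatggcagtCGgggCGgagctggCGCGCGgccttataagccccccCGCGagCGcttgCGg
NCOA7 holds 8 CG dinucleotides in this window, a number that 29.7% of 15843 protein-coding promoters do not exceed, while KDM4B holds 36, which 94.9% do not exceed. Over the 35 of 40 members with an entry the median was 23, against 17 over the protein-coding promoters. The androgen receptor's hexamer AGAACA or its reverse complement TGTTCT occurred in 0 of these 35 windows and in 9.43% of the protein-coding ones. The inverted repeat of the hexamer spaced by NNN, which contains it, occurred in 0 of both sets. These are matches of letters in a short window on both strands and say nothing of receptor binding elsewhere.

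NCOA7 (ENSG00000111912.20, GRCh38 chr6:125781161-125932030) encodes an estrogen receptor-associated coactivator with a TLDc domain, and it fell step by step with dose. With vehicle it stood at 72.0, 83.1 and 73.9 CPM, followed by 57.2, 54.7 and 50.5 CPM at 0.03 nM, 38.9, 45.7 and 42.3 CPM at 0.06 nM, 32.6, 37.3 and 33 CPM at 0.1 nM, and 17.4, 22.5 and 16.7 CPM at 10 nM. Every treated library was below every vehicle library, and the 10 nM libraries were below all others. The fall was 4.03-fold at 10 nM (log2 −2.01, SE 0.0986, edgeR adjusted p = 7.24e-12). It was already called at 0.03 nM (log2 −0.50, SE 0.0927, edgeR adjusted p = 0.00213), and 10 nM lay below 0.06 nM by a further log2 change of −1.16 (SE 0.099, edgeR adjusted p = 2.93e-08).

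All 3 p160 coactivators were called lower at 10 nM, where 28.3% of all genes were, and the call of NCOA1 did not hold in every alternative. None of the 3 was called higher at any dose. The counts called lower were 1, 2 and 2 at 0.03, 0.06 and 0.1 nM, where 3.16%, 14.3% and 20.6% of all genes were. NCOA3 (ENSG00000124151.19, chr20:47501902-47656877), also known as AIB1, had its lowest level at 0.1 nM rather than at the highest dose. It stood at 48.2, 48.8 and 54.5 CPM in vehicle, 40.6, 36.6 and 37.6 CPM at 0.03 nM, 32.5, 34.6 and 33.8 CPM at 0.06 nM, 30.3, 32.0 and 29.1 CPM at 0.1 nM, and 35.6, 38.1 and 35.7 CPM at 10 nM. All 12 treated libraries were below the vehicle libraries, and the 10 nM libraries were above those at 0.06 and 0.1 nM. Its log2 changes against vehicle were −0.40, −0.59, −0.73 and −0.47 (SE 0.0604 to 0.0613) with edgeR adjusted p from 0.00034 at 0.03 nM to 3.98e-08 at 0.1 nM. The rise from 0.06 to 10 nM was not called (log2 0.12, SE 0.0616, edgeR adjusted p = 0.135).

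NCOA2 (ENSG00000140396.13), also known as TIF2, declined more evenly. It stood at 168, 189 and 189 CPM in vehicle, 165, 165 and 157 CPM at 0.03 nM, 142, 156 and 154 CPM at 0.06 nM, 130, 149 and 140 CPM at 0.1 nM, and 120, 137 and 125 CPM at 10 nM. No treated group overlapped vehicle, while neighbouring doses did overlap from 0.06 nM on. The log2 change was −0.27 at 0.06 nM (SE 0.0659, edgeR adjusted p = 0.00438) and −0.52 at 10 nM (SE 0.066, edgeR adjusted p = 2.58e-06). NCOA1 (SRC-1) was not called at low dose and was lower at 10 nM by a log2 change of −0.20 (SE 0.069, edgeR adjusted p = 0.0191). That call was lost without vehicle replicate 4 or 10 nM replicate 3 (edgeR adjusted p 0.0896 and 0.0987). Per kilobase of exon the order in vehicle was NCOA2 at 21.5, NCOA1 at 19.7 and NCOA3 at 6.33 CPM per kb. At 10 nM NCOA1 stood at 17.2, NCOA2 at 15.1 and NCOA3 at 4.57 CPM per kb.

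Among the remaining coactivators, TRIM24 and NCOA4 went up and NCOA6 was not called. TRIM24 (ENSG00000122779.18, chr7:138460334-138589993), a bromodomain protein that reads histone marks, stood at 76.2, 72.3 and 78.8 CPM in vehicle, 77.8, 77.4 and 75.4 CPM at 0.03 nM, 80.1, 80.1 and 82.5 CPM at 0.06 nM, 86.3, 85.7 and 85.6 CPM at 0.1 nM, and 113, 120 and 117 CPM at 10 nM. The 10 nM libraries were above all others, which lay between 72.3 and 86.3 CPM. TRIM24 rose 1.54-fold at 10 nM (log2 0.62, SE 0.0447, edgeR adjusted p = 1.42e-09). The rise at 0.1 nM (log2 0.18, SE 0.0449, edgeR adjusted p = 0.00348) was not called with plain library totals (adjusted p = 0.0643). NCOA4, an androgen receptor coactivator also known as the carrier of ferritin into autophagosomes, rose from 193 ± 4.97 to 261 ± 18.2 CPM (SD, n = 3) at 10 nM (log2 0.44, SE 0.0608, edgeR adjusted p = 6.24e-06). Of the 2 Mediator members, MED12, part of the kinase module, was lower at every dose, from 72.4 ± 2.84 CPM in vehicle to 56.0 ± 2.52 CPM at 10 nM (log2 −0.37, SE 0.0605, edgeR adjusted p = 4.01e-05). MED1, the subunit that contacts nuclear receptors, was not called at any dose.

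**Figure D3:**
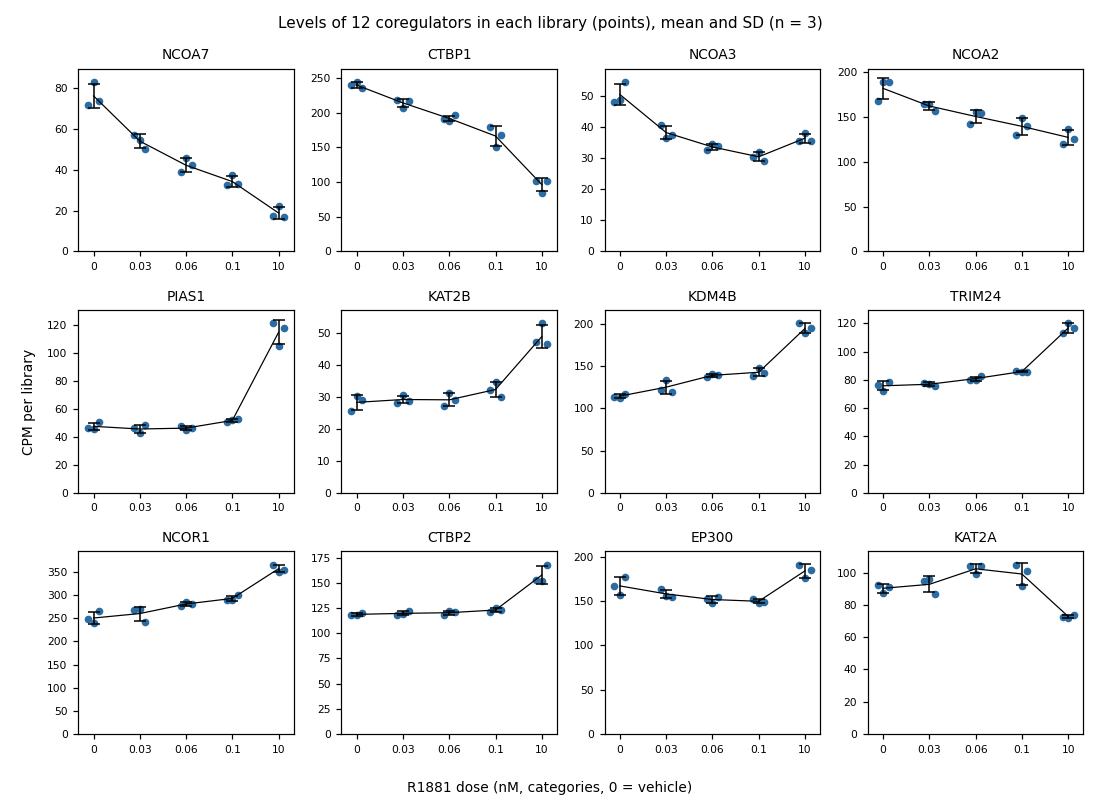
CPM of 12 coregulators in each library (points), with the mean and SD of 3 libraries, against R1881 dose in nM drawn as equally spaced categories, 0 being vehicle. NCOA7 and CTBP1 step down over the doses, PIAS1, KAT2B and CTBP2 stay near the vehicle level up to 0.1 nM and are higher at 10 nM, and NCOA3 is lowest at 0.1 nM.

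The acetyltransferases split by gene. KAT2B (PCAF; ENSG00000114166.8, chr3:20040023-20154404) stood at 25.7, 30.3 and 29 CPM in vehicle, 28.2, 30.6 and 28.9 CPM at 0.03 nM, 27.2, 31.2 and 29 CPM at 0.06 nM, 32.3, 34.8 and 30 CPM at 0.1 nM, and 47.2, 53.1 and 46.6 CPM at 10 nM. Each low-dose group overlapped vehicle, at 0.1 nM only through replicate 4, and the 10 nM libraries were all higher. KAT2B rose 1.73-fold at 10 nM (log2 0.79, SE 0.075, edgeR adjusted p = 6.13e-08). Its call at 0.1 nM (adjusted p = 0.0499) was lost without any of 8 libraries, namely vehicle 2 or 4, 0.03 nM 2, 3 or 4, 0.06 nM 4, or 0.1 nM 2 or 3, with edgeR adjusted p from 0.0505 to 0.228. Plain library totals, no or a stricter low-count filter and only the libraries compared also ended that call.

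KAT2A (GCN5), which takes the place of KAT2B in the same SAGA and ATAC complexes, is named here after its values were seen because it changed direction. It stood at 92.6, 87.2 and 91.2 CPM in vehicle, 104, 99.3 and 104 CPM at 0.06 nM, and 72.7, 72.2 and 73.8 CPM at 10 nM. The 3 groups did not overlap. It fell at 10 nM against vehicle (log2 −0.31, SE 0.0554, edgeR adjusted p = 0.000111) and against 0.06 nM (log2 −0.49, SE 0.0556, edgeR adjusted p = 9.25e-07). Its rise at 0.06 nM (log2 0.18, SE 0.0552, edgeR adjusted p = 0.0168) was lost without vehicle replicate 3, 0.06 nM replicate 2 or 0.06 nM replicate 4 (edgeR adjusted p 0.0536 to 0.079), and with plain library totals (adjusted p = 0.0755).

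EP300 (p300) showed the opposite order, also chosen after its values were seen. It stood at 167, 157 and 177 CPM in vehicle, 152, 148 and 155 CPM at 0.06 nM, and 191, 176 and 185 CPM at 10 nM. The 10 nM libraries were above those at 0.06 nM and overlapped vehicle. EP300 rose from 0.06 to 10 nM (log2 0.28, SE 0.0505, edgeR adjusted p = 0.000186), a call lost with plain library totals (log2 0.10, adjusted p = 0.184). Its fall at 0.06 nM (log2 −0.14, edgeR adjusted p = 0.042) was lost without vehicle 2 or 4, any 0.06 nM library, 0.1 nM 2 or 4, or 10 nM 4 (adjusted p 0.0537 to 0.203). Its rise at 10 nM against vehicle (log2 0.14, edgeR adjusted p = 0.0255) was lost without vehicle 2 or 3 or 10 nM 2 or 4 (adjusted p 0.0593 to 0.19), and the sign turned with plain totals. KAT2A and EP300 were the 2 of 40 members called in opposite directions from vehicle to 0.06 nM and from 0.06 to 10 nM, where 6.3% of all genes tested were. CREBBP (CBP), the close relative of EP300, fell at 10 nM from 145 ± 11.8 to 117 ± 7.1 CPM (SD, n = 3; log2 −0.31, SE 0.0678, edgeR adjusted p = 0.000741), and KAT5 (TIP60) was not called against vehicle.

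The methyltransferases moved by less than 0.4 log2 units. The arginine methyltransferase PRMT5 rose from 124 ± 5.02 CPM in vehicle to 149 ± 1.54 CPM at 0.06 nM and 156 ± 5.9 CPM at 10 nM (SD, n = 3; log2 0.33 at 10 nM, SE 0.0505, edgeR adjusted p = 2.21e-05). With plain library totals the 10 nM call was lost (log2 0.12, adjusted p = 0.0824), though that at 0.06 nM held in every alternative. PRMT1, with 79.3 CPM per kb in vehicle among the highest of the members, rose at 10 nM by a log2 change of 0.23 (SE 0.0569, edgeR adjusted p = 0.00197), a call also lost with plain totals (0.02, adjusted p = 0.806). KMT2A (MLL1), a histone H3 lysine methyltransferase of active promoters, fell from 124 ± 12 to 97.6 ± 2.13 CPM at 10 nM (log2 −0.35, SE 0.0605, edgeR adjusted p = 8.42e-05). KMT2D, which marks enhancers, lay at the edge of the threshold at 10 nM (log2 0.14, 95% interval 0.0155 to 0.256, edgeR adjusted p = 0.0504). CARM1 was not called at any dose.

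Among the lysine demethylases, KDM4A and KDM4B, which remove methyl groups from the same histone H3 residues, moved apart. KDM4B (ENSG00000127663.15, chr19:4969113-5153595) stood at 114, 113 and 117 CPM in vehicle, 122, 134 and 120 CPM at 0.03 nM, 137, 141 and 140 CPM at 0.06 nM, 139, 148 and 142 CPM at 0.1 nM, and 201, 189 and 195 CPM at 10 nM. Each treated group was above vehicle without overlap. KDM4B rose 1.7-fold at 10 nM (log2 0.77, SE 0.049, edgeR adjusted p = 2.77e-10) and was first called at 0.06 nM (log2 0.28, SE 0.049, edgeR adjusted p = 0.000238). KDM4A fell from 57.3 ± 3.1 CPM in vehicle to 46.0 ± 0.503 CPM at 0.06 nM and 43.9 ± 2.16 CPM at 10 nM (SD, n = 3; log2 −0.39 at 10 nM, SE 0.0546, edgeR adjusted p = 8.25e-06). KDM3A (JMJD1A) was lower at 0.06 and 0.1 nM (log2 −0.25 and −0.27, edgeR adjusted p = 0.0161 and 0.00665) and was not called at 10 nM (95% interval −0.26 to 0.05). The 0.06 nM call was lost without vehicle replicate 4 or 0.06 nM replicate 2 (edgeR adjusted p 0.0872 and 0.102). KDM1A (LSD1) and KDM4C were called at 0.1 nM alone, higher and lower in turn. The KDM1A call was lost without vehicle 3, 0.03 nM 3 or 4, any 0.06 nM library, 0.1 nM 2 or 4, or 10 nM 4 (edgeR adjusted p 0.0513 to 0.244), and that of KDM4C without vehicle 3 or 0.1 nM 2 (0.0547 and 0.078). A stricter low-count filter, only the libraries compared and plain library totals also ended the KDM1A call.

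Of the 4 remodellers, only CHD1 was called against vehicle. SMARCA2 and SMARCA4, the alternative ATPases of the SWI/SNF complex, and ARID1A, a DNA-binding subunit of it, were called in none of the 5 comparisons. At 10 nM against vehicle their 95% intervals reached from −0.16 to 0.16 log2 units. CHD1 was lower at 10 nM (log2 −0.28, SE 0.109, edgeR adjusted p = 0.0364), although its libraries overlapped vehicle, and the call was lost without vehicle 2, vehicle 4 or 10 nM 3 (adjusted p 0.091 to 0.177). Over all 11 members not called at 10 nM against vehicle, the 95% intervals lay between −0.26 for KDM3A and 0.26 for KMT2D. All of these intervals hold for TMM scaling alone. With plain library totals SMARCA2, SMARCA4 and ARID1A were called lower at 10 nM (log2 −0.171, −0.234 and −0.172, edgeR adjusted p 0.0105, 0.00909 and 0.0455). The median of all genes shifted by −0.21 there. KDM3A (−0.313), KDM4C (−0.325), NCOA6, KAT5, CARM1 and KDM1A were also called lower on those totals, and MED1 and KMT2D were not.

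CTBP1 fell while its relative CTBP2 rose. CTBP1 (ENSG00000159692.16, chr4:1211448-1249953, minus strand), a corepressor that binds short peptide motifs and senses NADH, stood at 240, 244 and 235 CPM in vehicle, 218, 207 and 217 CPM at 0.03 nM, 191, 188 and 196 CPM at 0.06 nM, 180, 151 and 168 CPM at 0.1 nM, and 102, 84.9 and 102 CPM at 10 nM. No 2 neighbouring doses overlapped. The fall was 2.5-fold at 10 nM (log2 −1.32, SE 0.0686, edgeR adjusted p = 1.63e-11), and was first called at 0.06 nM (log2 −0.32, SE 0.0673, edgeR adjusted p = 0.00132). CTBP2 (ENSG00000175029.17, chr10:124984317-125161170, minus strand), named after its values were seen, stood at 118, 118 and 120 CPM in vehicle, 118, 122 and 121 CPM at 0.06 nM, and 153, 152 and 168 CPM at 10 nM. Its vehicle and 0.06 nM libraries overlapped and its 10 nM libraries were all higher. It rose 1.33-fold at 10 nM (log2 0.41, SE 0.0458, edgeR adjusted p = 4.66e-07).

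A gene annotated on the opposite strand of CTBP1, the antisense RNA CTBP1-AS (ENSG00000280927.1), moved the other way. It stood at 7.2, 7.7 and 9.66 CPM in vehicle, 17.2, 20.9 and 18.5 CPM at 0.03 nM, 25.4, 26.3 and 24.9 CPM at 0.06 nM, 28.3, 37.0 and 27.8 CPM at 0.1 nM, and 59.2, 69.4 and 62.4 CPM at 10 nM. Its lowest treated library was above its highest vehicle library. CTBP1-AS rose at 10 nM by a log2 change of 2.96 (SE 0.119, edgeR adjusted p = 4.86e-13) and was called from 0.03 nM (log2 1.20, edgeR adjusted p = 5.59e-06). Its counts over all libraries came to 16.5% of those of CTBP1. Another gene on that strand, CTBP1-DT, did not pass the test at 10 nM (log2 −0.01, SE 0.0492, edgeR adjusted p = 0.9). The library kit keeps strand, but the strand setting of the counting is not given in the sources used here, so how reads of the overlapping genes were divided cannot be told apart. The same limit holds for 6 other members with a partner over 5% of their own counts, among them NCOR1 with TTC19 (30.9%), CTBP2 with ZRANB1 (27.1%), STUB1 with JMJD8 (63.2%), KAT5 with RNASEH2C (80.5%) and CARM1 with YIPF2 (112%). ZRANB1 itself was higher at 10 nM (log2 0.18, SE 0.0522, edgeR adjusted p = 0.00771), as were YIPF2 (log2 0.47, SE 0.0583, adjusted p = 1.64e-06) and both partners of NCOA6, PIGU (0.41, SE 0.072, adjusted p = 8.95e-05) and TP53INP2 (0.49, SE 0.106, adjusted p = 0.000685). RNASEH2C was lower (log2 −0.29, SE 0.0583, edgeR adjusted p = 0.000402), and TTC19 and JMJD8 were not called. Of these partners only PIGU lies on the same strand as its member, where a strand setting would not separate the reads.

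NCOR1 (ENSG00000141027.21, chr17:16029157-16218185, minus strand), the scaffold that activates HDAC3, rose with dose. It stood at 248, 239 and 265 CPM in vehicle, 268, 270 and 243 CPM at 0.03 nM, 276, 285 and 282 CPM at 0.06 nM, 290, 289 and 300 CPM at 0.1 nM, and 366, 351 and 355 CPM at 10 nM. From 0.06 nM on, each group was above vehicle without overlap. It rose 1.43-fold at 10 nM (log2 0.51, SE 0.0515, edgeR adjusted p = 1.28e-07). The call at 0.06 nM (log2 0.16, adjusted p = 0.0212) was lost without vehicle 2 or 3 or 0.06 nM 3 or 4 (edgeR adjusted p 0.0523 to 0.0977). Plain library totals, no low-count filter and leaving out all libraries numbered 3 also ended that call. DAXX, a histone chaperone, was higher at 10 nM (log2 0.23, SE 0.0655, edgeR adjusted p = 0.00668), a call lost without 10 nM replicate 2 (adjusted p = 0.0546) and with plain library totals (0.02, adjusted p = 0.861).

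All 4 deacetylases were called at 10 nM, 3 higher and 1 lower, where 57.6% of all genes were called, 29.3% higher and 28.3% lower. Only 2 of these calls held in every alternative. SIRT1, an NAD-dependent enzyme, rose from 40 ± 2.71 CPM in vehicle to 53.9 ± 1.44 CPM at 10 nM (SD, n = 3; log2 0.43, SE 0.0609, edgeR adjusted p = 8.07e-06) and was not called at lower doses. HDAC1 fell from 183 ± 8.27 to 163 ± 7.05 CPM at 10 nM (log2 −0.17, SE 0.0507, edgeR adjusted p = 0.00729). HDAC2 was highest at 0.1 nM, at 216 ± 6.51 CPM against 174 ± 9.5 CPM in vehicle (log2 0.31, SE 0.0517, edgeR adjusted p = 0.0001). Its 10 nM call (log2 0.13, adjusted p = 0.0438) was lost without any 10 nM library, vehicle 3 or 4, 0.06 nM 2 or 4, or 0.1 nM 2 or 4 (edgeR adjusted p 0.05 to 0.288). The HDAC3 call at 10 nM (log2 0.16, adjusted p = 0.0206) was lost without vehicle 3, 10 nM 2 or 10 nM 4 (0.0579 to 0.172). With plain totals the signs of HDAC2 and HDAC3 at 10 nM turned. Neither of these 10 nM calls held with no or a stricter low-count filter, or with only the libraries compared.

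PIAS1 showed the largest rise of the 40 members, and it came between 0.1 and 10 nM. PIAS1 (ENSG00000033800.14, chr15:68054179-68198603) is a SUMO ligase that binds the receptor and STAT proteins. It stood at 46.3, 45.8 and 50.2 CPM in vehicle, 46.0, 42.4 and 48.2 CPM at 0.03 nM, 47.9, 44.6 and 46.0 CPM at 0.06 nM, 50.2, 52.3 and 52.5 CPM at 0.1 nM, and 121, 105 and 118 CPM at 10 nM. Each low-dose group overlapped vehicle, at 0.1 nM only through replicate 2 at 50.2 CPM, whereas every 10 nM library was at 105 CPM or more. The rise was 2.41-fold against vehicle (log2 1.27, SE 0.0619, edgeR adjusted p = 6.57e-12). At 0.1 nM it was not called (log2 0.12, SE 0.0622, edgeR adjusted p = 0.127), and against 0.06 nM the 10 nM change was 1.31 (SE 0.0623, edgeR adjusted p = 1.31e-11).

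PIAS2 (PIASx), its relative, went the other way, from 55.3 ± 0.463 to 44.2 ± 2.23 CPM at 10 nM (SD, n = 3; log2 −0.32, SE 0.0502, edgeR adjusted p = 2.76e-05). Per kilobase of exon PIAS1 and PIAS2 stood at 5.34 and 3.95 CPM per kb in vehicle, among the lowest of the members, and at 12.9 and 3.17 CPM per kb at 10 nM. SPOP, the substrate adaptor of a cullin ubiquitin ligase that is often mutated in prostate cancer, was higher at 10 nM (70.4 ± 1.26 to 86.8 ± 1.64 CPM; log2 0.30, SE 0.0555, edgeR adjusted p = 0.000148), a call lost with plain library totals (0.09, adjusted p = 0.286). STUB1 (CHIP), a chaperone-bound ubiquitin ligase and the highest member per kilobase in vehicle (87.1 CPM per kb), was higher at 0.06 nM (log2 0.26, SE 0.0665, edgeR adjusted p = 0.00574). Its 10 nM call (log2 0.20, adjusted p = 0.0165) was lost without vehicle 4, 10 nM 2 or 10 nM 3 (edgeR adjusted p 0.0515 to 0.109). The STUB1 call at 10 nM was also lost with a stricter low-count filter and with plain library totals, where its sign turned.

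Ratios between related genes within a library do not depend on how libraries are scaled against each other. They were formed for 13 pairs as log2 ratios of counts, with no correction for gene length, so only their change between groups is read. From vehicle to 10 nM, CTBP1 to CTBP2 went from 1.02, 1.05 and 0.97 to −0.59, −0.84 and −0.73, so that the gene with more counts changed. KAT2A to KAT2B went from 1.85, 1.53 and 1.65 to 0.62, 0.44 and 0.67. PIAS1 to PIAS2 went from −0.24, −0.28 and −0.14 to 1.52, 1.17 and 1.43. In each of these pairs the 2 groups lay far apart, with mean differences of −1.73, −1.10 and 1.59 log2 units. KDM4A to KDM4B fell by 1.15 log2 units and did so step by step, with every dose below the one before it. EP300 to CREBBP differed by 0.45. SMARCA2 to SMARCA4 differed by 0.06, and the libraries overlapped; between 10 and 0.06 nM it differed by 0.14 without overlap. Groups did not overlap for 9 of the 13 pairs at 10 nM against vehicle. Of all single genes tested, 62.6% did not overlap there, and no share was computed for other pairs of genes. With 3 against 3 libraries the smallest two-sided exact permutation p is 0.1, and the smallest adjusted over the 65 ratios compared was 0.155, so the exact test cannot pass the threshold here.

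**Figure D4:**
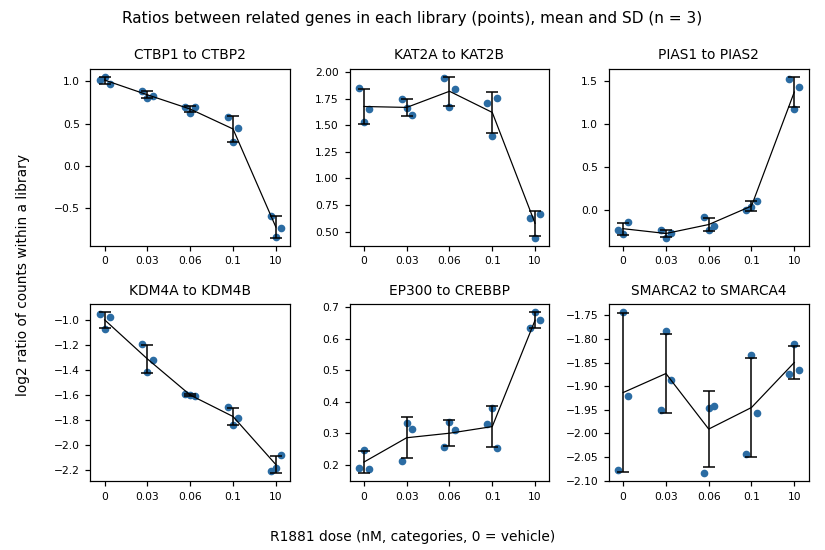
Log2 ratio of counts between 6 pairs of related genes in each library (points), with the mean and SD of 3 libraries, against R1881 dose in nM drawn as equally spaced categories, 0 being vehicle; the vertical axes differ and do not start at 0. The CTBP1 to CTBP2 ratio crosses 0, a level not corrected for gene length, between 0.1 and 10 nM. The KAT2A to KAT2B and PIAS1 to PIAS2 ratios change most between the same doses. PIAS1 to PIAS2 is already higher at 0.1 nM than in vehicle, without overlap (means 0.043 and −0.22). SMARCA2 to SMARCA4 overlaps vehicle at every dose.

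The partners of these proteins in their complexes give the setting. Of 31 other Mediator subunits tested, 16 were called higher and 5 lower at 10 nM, with a median log2 change of 0.17 (7 higher and 11 lower, median −0.04, with plain library totals). The kinase CDK8, in the same module as MED12, fell from 85.7 ± 0.237 to 24.6 ± 1.59 CPM (SD, n = 3; log2 −1.80, SE 0.0611, edgeR adjusted p = 5.05e-14), MED14 by 0.30 and MED13 by 0.26 log2 units, while MED12L rose by 0.97, MED30 by 0.95 and MED31 by 0.62. Of 24 other SWI/SNF subunits 5 were higher and 11 lower (1 and 16 with plain totals). SMARCD3 fell 2.57-fold, SMARCE1 by 0.69 and DPF1 by 0.67 log2 units, and BCL7B rose by 0.42, ACTL6A by 0.33 and SMARCC1 by 0.32, the last 2 not called with plain totals (0.12 and 0.11).

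Of 34 other subunits of NCOR, CoREST, NuRD, SIN3 and related corepressor complexes tested, 12 were higher and 11 lower (7 and 17 with plain totals). HMG20B, a CoREST subunit, rose from 186 ± 6.97 to 352 ± 13.6 CPM (SD, n = 3; log2 0.93, SE 0.0525, edgeR adjusted p = 5.36e-11), SAP30 by 1.07 and MBD2 by 0.76 log2 units, while HDAC5 fell by 0.84, PHF21A by 0.79 and HDAC4 by 0.43. Of 16 other members of KMT2 complexes 5 were higher and 2 lower (2 and 7 with plain totals). The 2 that fell were KMT2C (log2 −0.70) and the demethylase KDM6A (−0.69), while PAGR1 rose by 0.56, MEN1 by 0.45 and PAXIP1 by 0.22, the last not called with plain totals (0.01, adjusted p = 0.926). Of 37 further coregulators tested, 17 were higher and 10 lower (6 and 18 with plain totals). In that list GRHL2 rose by 1.41, SIAH2 by 0.93 and RNF14 by 0.69 log2 units, and PATZ1 fell by 0.80 and KDM6A by 0.69. The shares of all genes called, 29.3% higher and 28.3% lower, apply to the counts of these lists with TMM scaling only. With plain totals 3069 of all genes were called higher and 7987 lower at 10 nM against vehicle. Of all genes called there, 27.8% were higher, and the lists' counts with plain totals are to be read beside that split.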

How the data were processed

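Counts of reads per gene for 15 LNCaP libraries were used as the authors deposited them, in 1 table of whole-number counts with Ensembl identifiers. Per the submitters' processing notes, Trimmomatic 0.39, STAR 2.7.8a, DESeq2 1.36.0 and GRCh38 were used; the counting tool, its strand setting and the gene annotation are not given in the sources used here. A VCaP table held 15 columns whose names match no sample label, and it was not used. Genes were kept by edgeR's default expression filter (18403 of 37843 rows) and tested with edgeR 4.0.16 (quasi-likelihood, TMM, all 15 libraries, 1 mean per group, Benjamini-Hochberg adjustment); the alternatives were RLE factors, DESeq2 1.42.0, other filters, a replicate block, fewer libraries and plain library totals. Log2 ratios of related genes used the counts without a pseudocount, and a pseudocount of 0.5 was an alternative. The fit was tested on simulated data. Some genes of these lists are not reported here. Symbols, positions and exon lengths came from GENCODE release 29, promoters from RefSeq. Full values are given for members called with a change of at least 0.5 log2 units, and elsewhere for up to 3 called genes of at least 5 CPM per list and direction. Members and lists were chosen with earlier results of these data known.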

Additional observations from a re-analysis of the deposited data

How the results depend on the processing

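Of 90 calls of members over the 5 comparisons, the replicate block ended 0, RLE factors 1, DESeq2 2, a stricter low-count filter 9, no filter 10, only the libraries compared 10, leaving out the 5 libraries numbered 3 ended 6, and plain library totals ended 16 and reversed 6. The reversed log2 values, all under plain totals, were −0.071 for EP300, −0.083 for HDAC2, −0.054 for HDAC3 and −0.011 for STUB1 at 10 nM against vehicle, and −0.027 for KAT5 and −0.024 for KMT2D at 10 nM against 0.06 nM; plain totals shift all genes by −0.21 and −0.18 there. Members called higher at 0.03 nM numbered 0, and 1 with DESeq2 and 2 with the replicate block. Members called lower at 0.03 nM numbered 4, and 8 with the replicate block, 2 with only the libraries compared and 2 with plain totals. All genes called at 0.03 nM numbered 1588, and 3195 with the replicate block and 1008 with only the libraries compared. With plain totals, members called higher fell to 4 at 0.06 nM (main 8), 5 at 0.1 nM (10) and 8 at 10 nM (16), and members called lower at 10 nM numbered 22 (13). Members called lower at 10 nM against 0.06 nM numbered 7, and 12 with a stricter filter, 13 with the replicate block and 21 with plain totals. Plain totals split all genes called into 2542 higher and 2896 lower at 0.06 nM (3114 and 2633 with TMM) and 3145 and 4486 at 0.1 nM (3958 and 3787). The cause of the other shifts was not tested.

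Leaving out 1 library at a time gave these ranges of all genes called: 0.03 nM 979 (without vehicle replicate 4) to 1650, 0.06 nM 4493 to 5860, 0.1 nM 6771 to 7885, 10 nM 9600 to 10807, and 10 against 0.06 nM 7208 to 8475. Members called higher ranged over 0 to 0, 4 (without vehicle replicate 3) to 8, 7 to 10, 11 to 17 and 10 to 12 in the same order, and members called lower over 2 to 4, 6 to 9, 9 to 12, 11 to 13 and 6 to 9. Without vehicle 2 or 4, 0.03 nM 3 or 4, 0.06 nM 4, or 0.1 nM 2 or 4 the 0.03 nM count was 2. Ratios of related genes, recomputed with a pseudocount and without each library, moved by less than 1 SD between libraries, but small ones could turn sign, and overlap was not recomputed: without vehicle replicate 2 the SMARCA2 to SMARCA4 difference at 10 nM was −0.019 in place of 0.063 and that of KAT2A to KAT2B at 0.03 nM was 0.078 in place of −0.009. Libraries with the same number correlated in their deviations by over 0.1 in 23 of 30 pairs (−0.0138 to 0.315), and others in 1 of 60 (median −0.087); every library correlated best with one of its own number. The numbers were to be taken as pairs only if all 30 passed 0.1 or the labels said so, so the block stands as an alternative. The block added calls at 0.03 nM for KDM3A, CTBP1, HDAC2, NCOA2, STUB1 and CREBBP. At 0.06 nM it added KDM1A, HDAC3 and KDM4C, and at 0.1 nM NCOA1, HDAC3, NCOA4, KMT2A, PIAS1 and KAT2A. The starting doses given above therefore depend on the model used.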
